A study of Mus musculus with 3 samples.

Results

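Cytochrome P450 enzymes and the conjugation enzymes that act after them were followed across the cell types of the mouse lacrimal gland, the gland beside the eye that makes most of the watery layer of tears. The genes were taken by name: symbols that start with Cyp, Sult or Ugt and a digit, or with Gsta, Gstm, Gstp or Gstt and a digit. Of 32285 genes in the files, 162 carry such a symbol, and the 47 of them with at least 50 unique molecular identifiers (UMIs, 1 per captured RNA molecule) over the 3 libraries are described here. They comprise 27 P450 (Cyp), 11 glutathione transferase (Gst), 7 sulfotransferase (Sult) and 2 UDP-glycosyltransferase (Ugt) genes, with 290090 UMIs in all. Of the others, 98 had 1 to 49 UMIs and 17 had none. Just inside the limit lay Gstp1 with 58 UMIs and Cyp2j11 with 52, and just outside it Cyp2j8 with 48 and Gstm7 with 47.

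The study sequenced RNA from single nuclei of fresh glands with the 10x 3' version 3 chemistry, in 3 libraries. The control library came from a healthy mouse gland, the scopolamine library from a mouse with dry eye induced by scopolamine, a blocker of muscarinic receptors, together with a dry environment, and the tamsulosin library from the same dry eye model treated with tamsulosin, a blocker of alpha-1 adrenergic receptors. The labels give no age, strain, sex, dose or number of animals, and their protocol speaks of a sort for red fluorescent nuclei that may belong to another assay. Each group is 1 library, so no difference between groups could be tested against replicates. Every interval below is a 95% interval that covers counting error only, and the scopolamine and control libraries each serve in 2 of the 3 comparisons.

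P450 enzymes put oxygen into lipids, steroids and foreign chemicals with electrons passed on by the reductase Por and cytochrome b5. Glutathione transferases, sulfotransferases and glucuronosyltransferases then attach glutathione, sulfate or a sugar, which makes the product more soluble or ends the action of a hormone. Liver holds the greatest variety of both groups, while airway, nasal and skin epithelia carry their own sets. Some members act on the body's own molecules instead: Cyp7b1, Cyp27a1, Cyp46a1 and Cyp39a1 oxidise cholesterol and its derivatives, Cyp51 makes cholesterol, Cyp26b1 clears retinoic acid, and Ugt8a makes the myelin lipid galactosylceramide.

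After removal of likely doublets, 6780 control, 9205 scopolamine and 10864 tamsulosin nuclei were kept, with median depths of 2318, 1732 and 3361 UMIs. Pairs of libraries shared 22 to 35 cell barcodes, and Y-linked genes had at most 4 UMIs in any library. Nuclei were clustered without any of the 162 genes with such a symbol and named from marker genes. The acinar-like class, the secretory cells of the gland, held 5157, 6092 and 2994 nuclei in the control, scopolamine and tamsulosin libraries. A class called Acsm1-high here, drawn after the clusters were seen from 3 epithelial clusters with at least 4-fold more Acsm1 than the median cluster, held 425, 606 and 3412. It is not named as a cell type. The level of the duct marker list summed over its genes was 2032, 4854 and 10150 counts per 1000000 UMIs of the class (CPM) in this class. In acinar-like nuclei it was 1034, 1167 and 1749 CPM. The top genes of the Acsm1-high clusters held at most 1 duct marker, against 2 in the duct-like cluster 18. The rule for duct-like clusters asked for at least 5 raised duct markers (log2 at least 1 above the median cluster). Clusters 6 and 15 met that rule, with 10 and 8 such markers. Cluster 12, with 4, did not, and would have been acinar-like by the rules set beforehand. Nearly all control nuclei of the class (411) lie in cluster 12, and those of the other libraries in clusters 6 and 15, so a difference from control in this class is also a difference between clusters. In acinar-like nuclei too, clusters 2 and 3 were nearly all control, 10 and 21 scopolamine and 19 tamsulosin.

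RNA that floats free of nuclei adds UMIs to every class, and its makeup differed between the libraries. The secretory RNAs Mucl2, Scgb2b2 and Scgb1b2 made up 3.67%, 12.0% and 18.8% of UMIs in macrophage-like nuclei of the control, scopolamine and tamsulosin libraries, close to their share in acinar-like nuclei (3.43%, 13.1% and 17.5%). Macrophage markers themselves were specific (2044, 2437 and 2481 CPM in macrophage-like against 38.5, 61.8 and 48.1 CPM in acinar-like nuclei). The level in macrophage-like nuclei is therefore given beside the epithelial level of the members described at length, and an epithelial level at or below it is not read as expression by that class.

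Where a pair of libraries is compared, the ratio of CPM was divided by the median ratio of all genes in that class, since that median lay below 1 in acinar-like nuclei (log2 -0.29 between scopolamine and control, -0.14 between tamsulosin and scopolamine). A gene counts as past the fold where this relative ratio is at least 1.5 in either direction and its interval does not hold 1, and it is measured where both libraries together hold 30 UMIs or more. No called ratio of a named member turned to the other direction without the division.

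The sequences upstream of the start sites are shown for 6 members described at length: Cyp2a5, Cyp2b19 and Cyp2b10, which were lower with scopolamine, Sult1e1, which was higher, and Cyp2f2 and Gsta3, the members with the most UMIs. They are from RefSeq on GRCm38.p6, cut before the first transcribed base of either annotation, and run 5' to 3' on the gene's strand. Capitals mark a match, on either strand, to TTATGNAA, a form of the D-box bound by the clock factors DBP, TEF and HLF, or in Gsta3 to TGACNNNGC, the core of the antioxidant response element bound by NRF2. The motifs were chosen after the levels were known.
Cyp2a5, chr7:26835189-26835304, plus strand: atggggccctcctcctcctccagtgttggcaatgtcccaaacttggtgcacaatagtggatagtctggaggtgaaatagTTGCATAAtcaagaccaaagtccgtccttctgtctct
Cyp2b19, chr7:26756992-26757141, plus strand: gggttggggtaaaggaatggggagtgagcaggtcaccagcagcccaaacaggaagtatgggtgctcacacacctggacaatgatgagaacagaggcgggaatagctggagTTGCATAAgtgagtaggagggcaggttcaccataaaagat
Cyp2b10, chr7:25897508-25897619, plus strand: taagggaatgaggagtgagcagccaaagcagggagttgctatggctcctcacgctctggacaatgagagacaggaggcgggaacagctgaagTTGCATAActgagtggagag
Cyp2f2, chr7:27119805-27119908, plus strand: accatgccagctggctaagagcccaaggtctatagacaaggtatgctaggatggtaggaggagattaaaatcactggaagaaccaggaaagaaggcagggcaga
Sult1e1, chr5:87591612-87591761, minus strand: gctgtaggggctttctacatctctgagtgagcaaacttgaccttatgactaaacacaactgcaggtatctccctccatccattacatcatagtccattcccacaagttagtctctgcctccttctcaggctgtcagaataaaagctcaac
Gsta3, chr1:21240435-21240584, plus strand: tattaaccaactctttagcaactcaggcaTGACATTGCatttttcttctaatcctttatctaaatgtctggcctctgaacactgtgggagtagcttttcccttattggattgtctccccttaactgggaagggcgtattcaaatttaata

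The Cyp2a5, Cyp2b19 and Cyp2b10 windows each hold the same 8 letters, TTGCATAA, which start 71, 40 and 58 bases before the RefSeq start site. The windows printed for Cyp2a5 and Cyp2b10 end before that site, because the GENCODE start lies upstream of it. In windows from 250 bases before to 50 after the start, TTATGNAA was found in 3.38% of 32851 RefSeq promoters and in 5 of the 39 members with an entry (12.8%): Cyp2a5, Cyp2b19, Cyp2b10, Cyp27a1 and Gstt1. Cyp2a5, Cyp2b19 and Cyp2b10 are related genes of 1 cluster on chromosome 7, so their shared letters are not independent of each other. TGACNNNGC was found in 12.4% of promoters and in 4 of 39 members (Gsta3, Gstm5, Cyp2j6 and Cyp4f18), and the dioxin response core GCGTG in 32.4% and 16 of 39. The windows printed for Cyp2f2 and Sult1e1 hold no TTATGNAA.

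Across classes, 11 of the 47 members had their highest level in Acsm1-high nuclei in all 3 libraries. For 5 of them the ratio to the next class had an interval above 1 in each library: Cyp2f2, Cyp2a5, Cyp4a12b, Gsta3 and Sult1e1. Counts of this kind were not made over all genes, so they do not show whether the members differ from other genes. Macrophage-like nuclei had the highest level of 2 members throughout, Cyp27a1 and Cyp4f18, both with such intervals. Acinar-like nuclei were highest for Cyp2b19 and Cyp2b10 in each library, but not beyond the counting error of the next class in any of them. Hepatocyte markers were at most 1.84 CPM in acinar-like, Acsm1-high and macrophage-like nuclei.

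**Figure D1:**
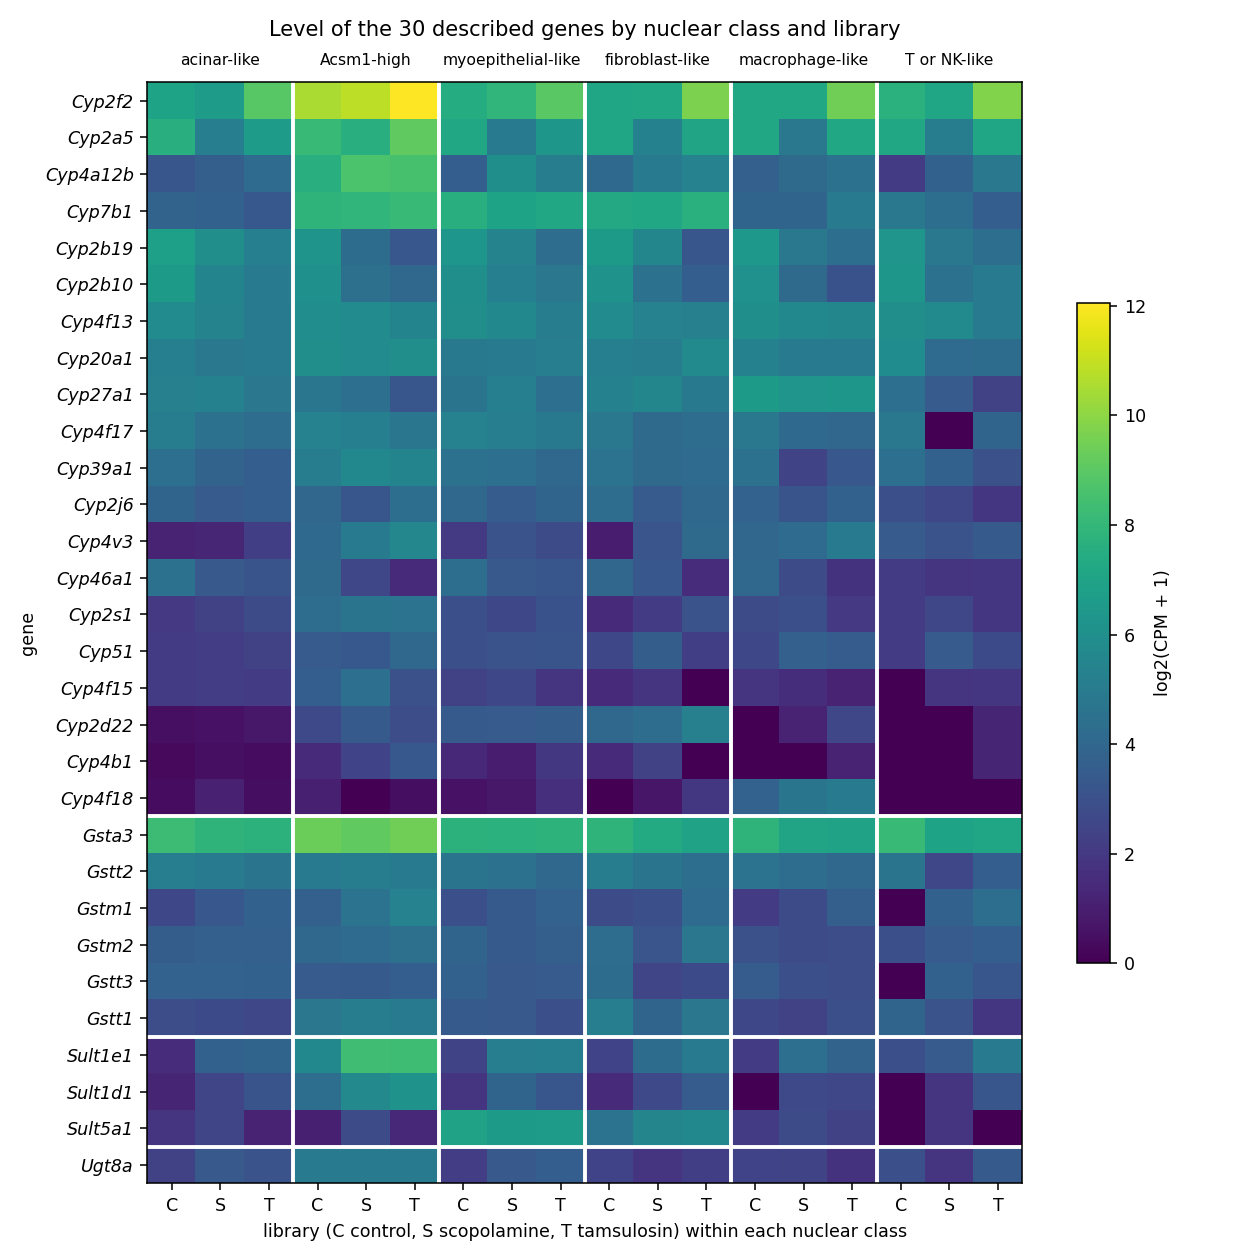
Level of the 30 named members (rows) by class and library (columns), as log2(CPM + 1), with brighter colours for higher levels. Cyp2f2, Cyp4a12b, Sult1e1 and Gsta3 are brightest in the Acsm1-high columns of all 3 libraries, and Cyp27a1 and Cyp4f18 in the macrophage columns.

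Cyp2f2, the enzyme that activates naphthalene in club cells of the mouse airway, gave 141017 of the UMIs, more than any other member. Its level in Acsm1-high nuclei was 1463 CPM in the control, 1847 CPM in the scopolamine and 4271 CPM in the tamsulosin library. The tamsulosin level was the highest, 2.63-fold above scopolamine after division by the class median (2.54 to 2.72). Within cluster 6 alone it was 2081 CPM in the scopolamine and 4820 CPM in the tamsulosin library, and within cluster 15 it was 1455 and 3100 CPM. Nuclei of the libraries may still differ in kind inside these clusters. With finer clusters (Leiden resolution 2.0), an Acsm1-high cluster held 266 scopolamine and 26 tamsulosin nuclei and another held 44 and 1462. The part of such differences in the result was not tested.

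In acinar-like nuclei Cyp2f2 stood at 127, 101 and 492 CPM and in macrophage-like nuclei at 149, 143 and 702 CPM. The acinar-like level was 0.852, 0.704 and 0.702 times the macrophage-like one and is not read as acinar expression. A Cyp2f2 UMI was seen in 95.8%, 91.1% and 99.2% of Acsm1-high nuclei and in 31.4%, 23.1% and 85.7% of macrophage-like nuclei. With each nucleus thinned to 1000 UMIs the shares were 73.7%, 73.7% and 91.3% in Acsm1-high and 17.5%, 12.8% and 56.1% in macrophage-like nuclei. Against scopolamine, Cyp2f2 was past the fold on the higher side in the tamsulosin library in 6 of 6 classes. Mitochondrial RNA also took a larger share of UMIs in Acsm1-high nuclei of the tamsulosin library (1.18%, against 0.361% with scopolamine and 0.303% in the control), and its part in the result was not tested. The long noncoding gene Gm15883 overlaps Cyp2f2 on the other strand and had 199, 625 and 597 CPM in the same nuclei, a different order over the libraries. Whether the counting used strand is not given in the sources used here.

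Cyp2a5, the coumarin and nicotine hydroxylase, was lowest in the scopolamine library in every class compared. It had 188, 34.4 and 95.9 CPM in acinar-like nuclei and 274, 188 and 555 CPM in Acsm1-high nuclei of the control, scopolamine and tamsulosin libraries. Relative to the control, the scopolamine level was 4.47-fold lower (4.11 to 4.87) in acinar-like, 4.58-fold lower in myoepithelial-like and 4.53-fold lower in macrophage-like nuclei. In Acsm1-high nuclei it was 1.27-fold lower (1.13 to 1.45), which is not past the fold. Cyp2a5 was on the lower side in 5 of 6 classes in this comparison and on the higher side in 6 of 6 for tamsulosin against scopolamine.

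Much of the Cyp2a5 seen outside Acsm1-high nuclei was of the size found in macrophage-like nuclei, which held 143, 27.7 and 150 CPM. The acinar-like level was 1.32 times that (1.13 to 1.55) in the control, 1.24 times (0.908 to 1.74) with scopolamine and 0.640 times (0.559 to 0.736) with tamsulosin, so acinar-like expression is readable in the control library only. Acsm1-high nuclei stood above macrophage-like ones by 1.92, 6.78 and 3.70 times. Between scopolamine and tamsulosin Cyp2a5 in Acsm1-high nuclei was 3.36-fold higher (3.03 to 3.73), from 183 to 580 CPM within cluster 6 and from 198 to 500 CPM within cluster 15. A Cyp2a5 UMI was seen in 57.7%, 31% and 63.8% of Acsm1-high nuclei, and in 21.7%, 15.2% and 31.6% after thinning. Cyp2a5 shares 54.6% of its exonic 31-base stretches with its near copy Cyp2a4, so reads of the pair can be split or dropped in counting, and its values are uncertain to that extent.

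Cyp2b19, an arachidonic acid epoxygenase of skin keratinocytes, and Cyp2b10, the P450 that phenobarbital induces in mouse liver, had the same order of libraries as each other. Cyp2b19 was 112, 60.2 and 35.4 CPM in acinar-like nuclei of the control, scopolamine and tamsulosin libraries, and 75.3, 18.2 and 8.54 CPM in Acsm1-high nuclei. In the same order Cyp2b10 was 94.4, 42.4 and 31.6 CPM in acinar-like nuclei, and 65.3, 20.6 and 15.3 CPM in Acsm1-high ones. Both were highest in the control and lowest in the tamsulosin library in these classes, unlike Cyp2a5, which was lowest with scopolamine.

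For scopolamine against control both genes lay past the fold on the lower side in 6 of 6 classes. Cyp2b19 was 1.52-fold lower (1.42 to 1.64) in acinar-like and 3.61-fold lower (2.54 to 5.27) in Acsm1-high nuclei, and with nuclei thinned to 1000 UMIs it was no longer past the fold in either (log2 -0.54 and -0.49). The acinar-like ratio also missed the fold with a pseudocount of 5 CPM (log2 -0.55). Cyp2b10 was 1.82-fold lower (1.67 to 1.98) and 2.76-fold lower (1.96 to 3.96). In myoepithelial-like nuclei Cyp2b10 missed the rule at Leiden resolution 2.0 (log2 -0.98) and with the members among the variable genes (log2 -0.92), with intervals that held 1. Macrophage-like nuclei held 86.7, 27.0 and 19.6 CPM of Cyp2b19 and 66.7, 17.1 and 7.34 CPM of Cyp2b10. The acinar-like level of Cyp2b19 was 1.29, 2.23 and 1.81 times the macrophage-like one, each with an interval above 1, while the Acsm1-high level was 0.869, 0.673 and 0.436 times it and is not read as expression by that class. For Cyp2b10 the acinar-like level was 1.42, 2.48 and 4.30 times the macrophage-like one, also with intervals above 1. Acsm1-high nuclei stood above macrophage-like ones only with tamsulosin (2.09 times, 1.17 to 4.10). T or NK-like nuclei held 81.6 CPM of Cyp2b10 in the control and 29.1 CPM with tamsulosin. The acinar-like level of neither gene exceeded the next class beyond counting error in any library, so acinar expression of Cyp2b19 and Cyp2b10 is not clear. Cyp2b10 shares 19.4% of its 31-base stretches with Cyp2b13.

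**Figure D2:**
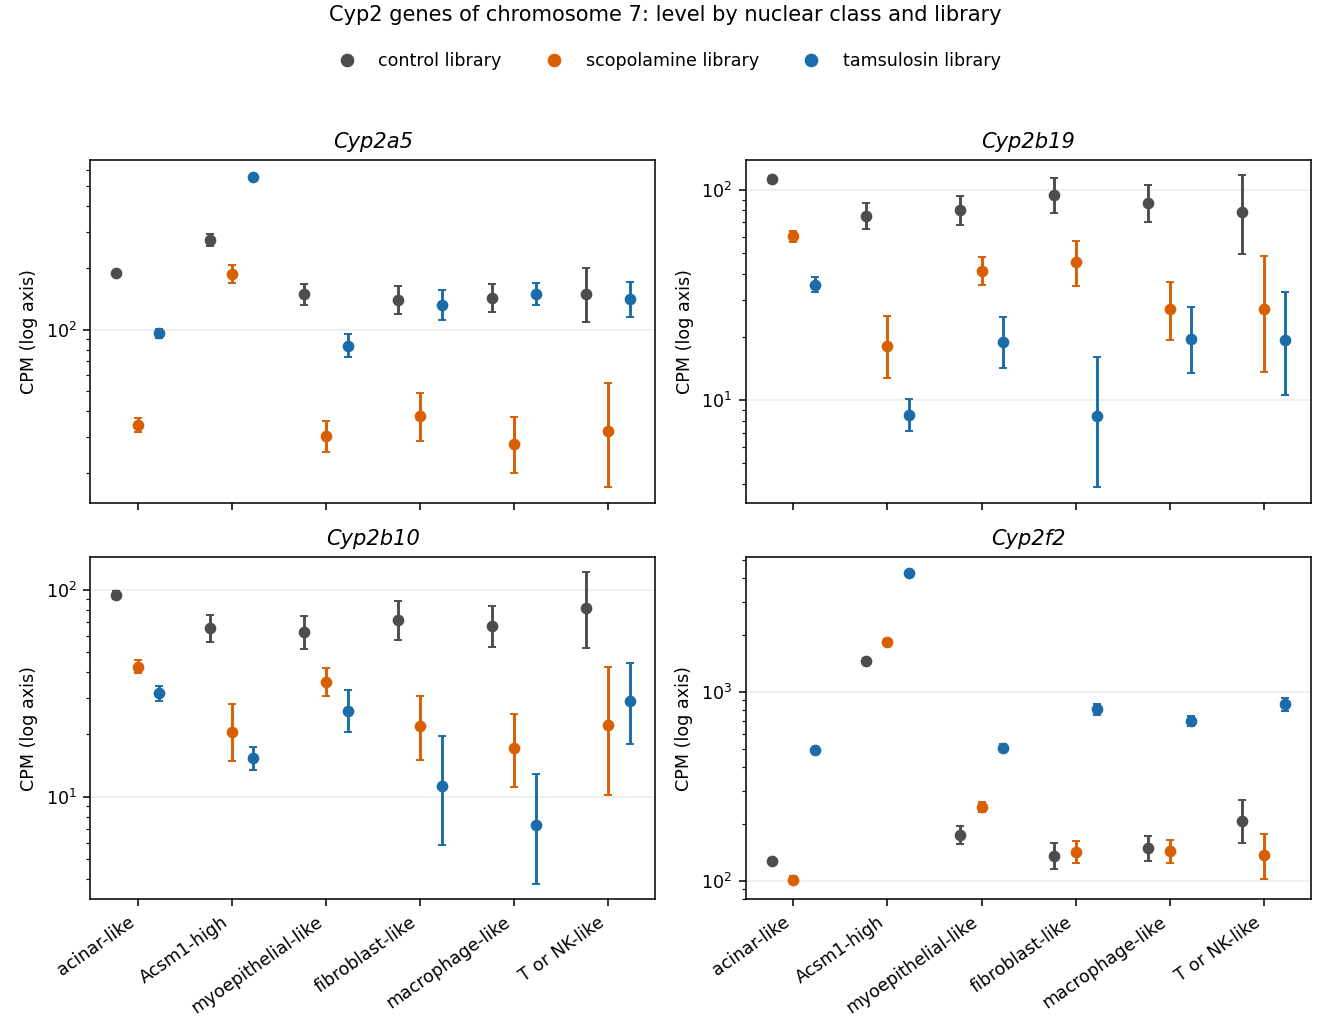
Level of Cyp2a5, Cyp2b19, Cyp2b10 and Cyp2f2 in CPM (log axis) by class, with 1 point per library and bars for the 95% counting interval. Cyp2a5 is lowest in the scopolamine library in all classes shown, Cyp2b19 and Cyp2b10 in acinar-like nuclei go down in the order control, scopolamine, tamsulosin, and Cyp2f2 is highest in the tamsulosin library.

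Cyp4a12b, of the family that hydroxylates the end of fatty acids, was highest in Acsm1-high nuclei, with 194, 394 and 379 CPM against 12.1, 17.1 and 22.0 CPM in macrophage-like nuclei. The next class was fibroblast-like in the control (16.4 CPM), myoepithelial-like with scopolamine (62.5 CPM) and endothelial-like with tamsulosin (68.2 CPM). Its scopolamine level was 2.33-fold above the control (2.08 to 2.60), a ratio that went below the fold (log2 0.55) with at least 1000 UMIs and 500 genes per nucleus. Inside the class it differed between clusters, with 590 and 492 CPM in cluster 6 against 76.7 and 139 CPM in cluster 15 for scopolamine and tamsulosin. It shares 62.9% of its 31-base stretches with Cyp4a12a. Cyp4v3, a fatty acid hydroxylase whose human counterpart is mutated in Bietti crystalline dystrophy, had 16.5, 31 and 46.9 CPM in Acsm1-high nuclei and was past the fold on the higher side for tamsulosin against scopolamine in 4 of 5 classes. That call was lost in Acsm1-high nuclei with doublets kept (log2 0.40) and when thinned (0.41), in fibroblast-like nuclei with doublets kept and without the division, in acinar-like nuclei when thinned and with the pseudocount, and in macrophage-like nuclei when thinned. Macrophage-like nuclei held 14.7, 17.8 and 30.6 CPM of Cyp4v3, which the Acsm1-high level did not exceed beyond counting error in the control. Cyp4f18, which inactivates leukotriene B4, was highest in macrophage-like nuclei at 13, 24.4 and 29.4 CPM, against 0.299, 1.13 and 0.376 CPM in acinar-like nuclei. The next class was B or plasma-like nuclei in the tamsulosin library, at 9.37 CPM. Cyp4f13, a fatty acid hydroxylase of the same subfamily, differed little between classes in the control (55.9 CPM in acinar-like, 59.5 in Acsm1-high and 64.1 in macrophage-like nuclei).

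The sterol enzymes differed in the classes that held them. Cyp27a1, the mitochondrial sterol 27-hydroxylase, was highest in macrophage-like nuclei at 92.7, 77.1 and 81.4 CPM, with 36.8, 38.8 and 26.1 CPM in acinar-like nuclei. In Acsm1-high nuclei it was 25.8, 20.2 and 8.23 CPM, 0.278, 0.261 and 0.101 times the macrophage-like level, and is not read as expression by that class. Cyp7b1, which hydroxylates oxysterols and DHEA, was highest in the small duct-like cluster 18 in the control and scopolamine libraries (415, 340 and 262 CPM over 21, 75 and 22 nuclei). It was 232, 243 and 286 CPM in Acsm1-high, 193, 128 and 145 CPM in myoepithelial-like nuclei and 152, 148 and 203 CPM in the fibroblast-like class, but 13.2, 12.4 and 9.15 CPM in acinar-like nuclei, no more than in macrophage-like ones (13.9, 13.8 and 31.2 CPM). For scopolamine against control Cyp7b1 was not past the fold in Acsm1-high nuclei (1.20-fold, 1.07 to 1.35).

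Cyp46a1, the cholesterol 24-hydroxylase known from neurons, was lower with scopolamine than in the control in 3 of 4 classes with enough UMIs. It went from 21.7 to 9.45 CPM in acinar-like nuclei (1.87-fold lower, 1.57 to 2.25) and stood at 7.83 CPM with tamsulosin. Macrophage-like nuclei held 15.6, 5.93 and 2.45 CPM of it, and the acinar-like level was above them only with tamsulosin (3.20 times, 1.22 to 11.9). Cyp39a1, which hydroxylates 24-hydroxycholesterol, was 34.1, 48.7 and 42.4 CPM in Acsm1-high and 22.5, 4.61 and 8.56 CPM in macrophage-like nuclei. Its highest levels were in B or plasma-like nuclei in the control (40.4 CPM) and in duct-like nuclei with scopolamine (51.3 CPM) and tamsulosin (43.6 CPM). None of these exceeded Acsm1-high nuclei beyond counting error. Cyp51, the lanosterol demethylase of cholesterol synthesis, was 10.0, 8.85 and 15.3 CPM in Acsm1-high nuclei. The macrophage-like level was 5.20, 11.9 and 10.4 CPM, which the Acsm1-high level did not exceed beyond counting error. Its reads cannot be told from those of the overlapping gene Akap9 if strand was not used.

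Among P450 genes at low levels, Cyp2s1, an epithelial P450, was 19.0, 23.6 and 23.3 CPM in Acsm1-high nuclei against 6.07, 6.59 and 3.06 CPM in macrophage-like ones. Cyp2d22 was 15.5, 18.6 and 37.6 CPM in fibroblast-like and 21.5, 36.1 and 30.3 CPM in endothelial-like nuclei, which did not differ beyond counting error in any library. Fibroblast-like nuclei had the highest level of Cyp26b1 (6.89, 6.64 and 15 CPM) and of Cyp1b1, which oxidises estrogens and polycyclic hydrocarbons (3.45, 7.31 and 8.45 CPM), though not beyond counting error in every library. Cyp2r1, the vitamin D 25-hydroxylase, was 14.7, 9.89 and 4.89 CPM in macrophage-like nuclei, which exceeded the next class beyond counting error in the control only. With tamsulosin it was higher in endothelial-like (15.16 CPM) and Acsm1-high nuclei (9.475 CPM). Cyp20a1, an orphan P450 with no known substrate, was 60.6, 54.6 and 60.3 CPM in Acsm1-high nuclei, with little difference between libraries, and 38.1, 31.6 and 29.4 CPM in macrophage-like ones. The Acsm1-high level did not exceed the next class beyond counting error in any library (T or NK-like in the control, 57.8 CPM).

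Of the glutathione transferases, Gsta3, an alpha class enzyme that detoxifies aflatoxin in the mouse, was 642 CPM in the control, 554 CPM in the scopolamine and 688 CPM in the tamsulosin library in Acsm1-high nuclei. In acinar-like nuclei it was 308, 232 and 217 CPM, and in macrophage-like nuclei 229, 132 and 124 CPM. Acsm1-high nuclei exceeded macrophage-like ones 2.81, 4.18 and 5.57 times, and acinar-like nuclei did so 1.35, 1.75 and 1.76 times, each with an interval above 1. In the control, though, T or NK-like nuclei stood at 1.23 times the macrophage-like level (0.952 to 1.58), close to the acinar-like 1.35. Scopolamine against control gave relative ratios of 0.988 (0.916 to 1.06) in Acsm1-high and 0.92 (0.885 to 0.956) in acinar-like nuclei, neither past the fold. The opposite-strand gene Gm28836, which overlaps Gsta3, had 10.4, 35.4 and 32.1 CPM in Acsm1-high nuclei.

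The mu class gene Gstm1 was 11.8, 23.1 and 39.2 CPM in Acsm1-high nuclei, against 3.47, 5.93 and 11.6 CPM in macrophage-like nuclei. It did not exceed the next class beyond counting error in any library (endothelial-like with tamsulosin, 34.1 CPM). In Acsm1-high nuclei scopolamine stood 2.24-fold above the control (1.40 to 3.60) and tamsulosin 1.93-fold above scopolamine (1.43 to 2.65). The first of these ratios went below the fold (log2 0.53) with at least 1000 UMIs and 500 genes per nucleus. Gstm1 shares 28.8% of its 31-base stretches with the pseudogene Gstm2-ps1. The theta class gene Gstt1 was 26.2, 33.9 and 29.5 CPM in Acsm1-high and 34.5, 13.9 and 26.3 CPM in fibroblast-like nuclei, against 5.20, 3.96 and 6.73 CPM in macrophage-like ones, while Gstt2 lay between 15.3 and 34.4 CPM in acinar-like, Acsm1-high, myoepithelial-like, fibroblast-like and macrophage-like nuclei. Gsta4, which conjugates the lipid peroxidation product 4-hydroxynonenal, was 15.1, 11.8 and 14 CPM in Acsm1-high nuclei and at most 1.73 CPM in macrophage-like ones.

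Sult1e1, the sulfotransferase that inactivates estrogens, had the highest ratio of scopolamine to control of any named member in Acsm1-high nuclei. Its level there was 48.4 CPM in the control, 325 CPM in the scopolamine and 322 CPM in the tamsulosin library. The 2 dry eye libraries were alike and both well above the control, with a relative ratio of 7.69 (6.38 to 9.32) for scopolamine against control and 1.12 (1.04 to 1.22) for tamsulosin against scopolamine. A Sult1e1 UMI was seen in 17.9%, 42.7% and 57.1% of these nuclei, and in 6.12%, 22.5% and 23.4% after thinning to 1000 UMIs. In macrophage-like nuclei the thinned shares were 0.615%, 1.75% and 1.07%. The control value comes from cluster 12 (48.2 CPM), while cluster 6 held 396 and 355 CPM and cluster 15 held 211 and 249.3 CPM with scopolamine and tamsulosin. The duct marker list summed over the whole class was also higher in both dry eye libraries than in the control (2032, 4854 and 10150 CPM). Unlike Sult1e1, it was higher with tamsulosin than with scopolamine. Its part in the result was not tested.

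Sult1e1 in acinar-like nuclei was 1.92, 12.4 and 13.8 CPM, a relative ratio of 7.92 (5.73 to 11.2) for scopolamine against control. Macrophage-like nuclei held 3.47, 20.4 and 13.5 CPM, so the acinar-like level was not above the macrophage-like one beyond counting error in any library (with tamsulosin 1.03 times, 0.663 to 1.68) and is not read as acinar expression. All 5 classes in which Sult1e1 was measured lay past the fold on the higher side for scopolamine against control. Sult1d1, which sulfates catecholamines, lies next to Sult1e1 on the minus strand of chromosome 5. It was 19.7, 50.1 and 70.2 CPM in Acsm1-high nuclei, 2.91-fold higher with scopolamine than in the control (2.08 to 4.12) and 1.59-fold higher with tamsulosin than with scopolamine (1.30 to 1.97). Thinned nuclei gave log2 0.75 for the first of these, no longer past the fold since the interval held 1. The second was not past it with doublets kept (log2 0.19) or without the division by the class median (0.49). Macrophage-like nuclei held 0, 5.27 and 4.89 CPM of Sult1d1.

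Sult5a1 had another distribution. It was 122, 95.2 and 96.5 CPM in myoepithelial-like nuclei, and in fibroblast-like ones it was 23.3, 43.2 and 48.8 CPM, against 3.47, 5.93 and 4.28 CPM in macrophage-like nuclei. In the small duct-like cluster 18 it was 704, 490 and 43.6 CPM over 21, 75 and 22 nuclei. In the 2 glycosyltransferases, Ugt8a was 30.8, 30.5 and 31.7 CPM in Acsm1-high nuclei, alike in the libraries, and 4.33, 4.61 and 2.45 CPM in macrophage-like nuclei. Ugt1a6a, which attaches glucuronic acid to phenols, reached 5.15, 1.84 and 5.72 CPM in myoepithelial-like nuclei and overlaps other Ugt1a genes on its strand, so its value is uncertain.

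**Figure D3:**
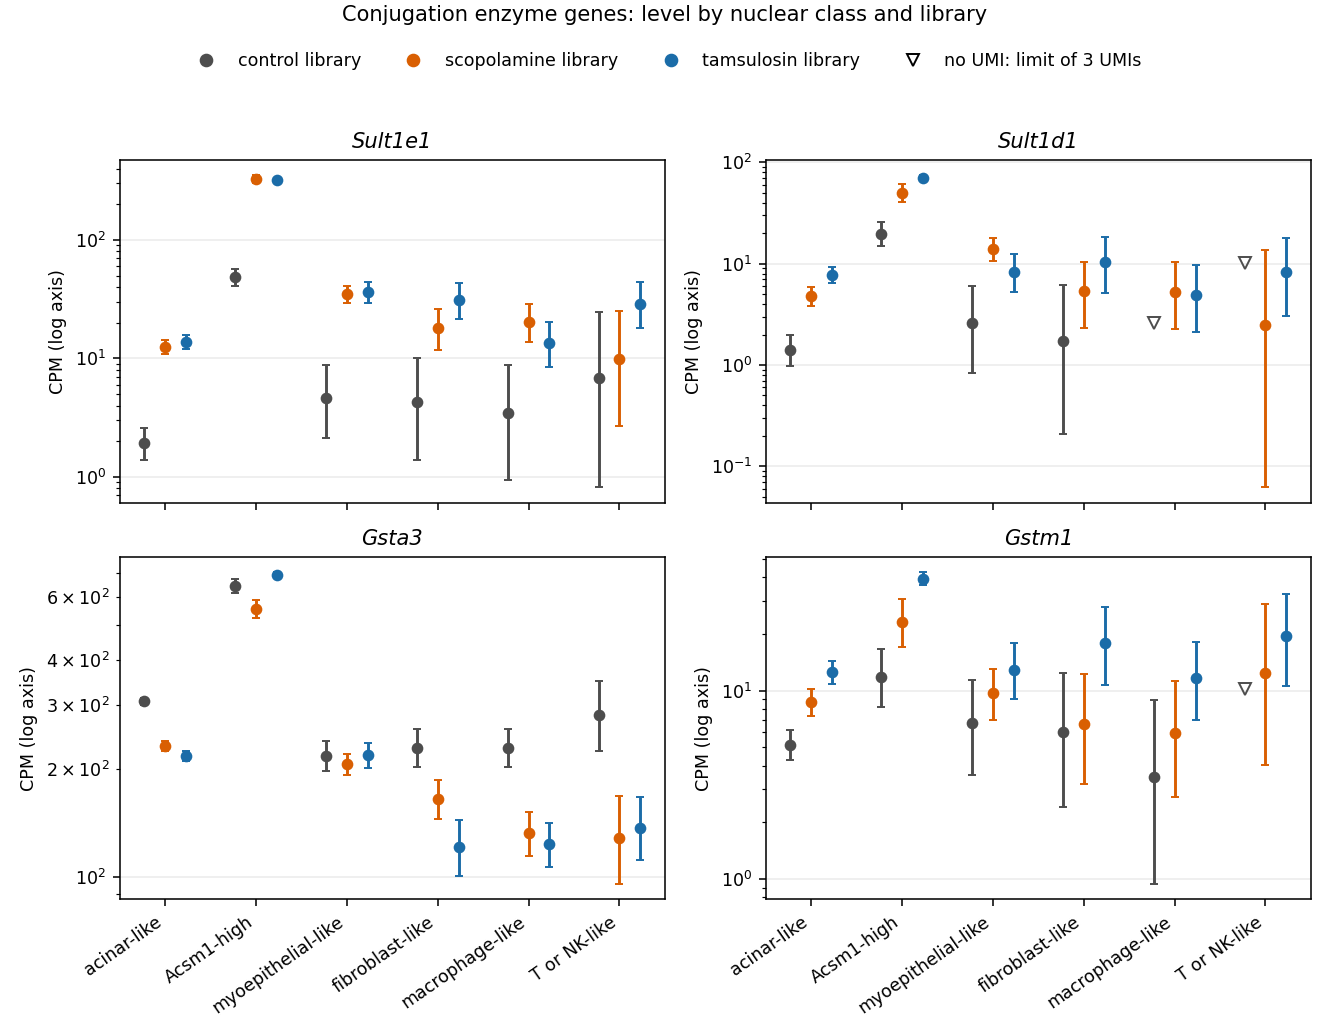
Level of Sult1e1, Sult1d1, Gsta3 and Gstm1 in CPM (log axis) by class, with 1 point per library, bars for the 95% counting interval and a triangle at the limit of 3 UMIs where no UMI was seen. Sult1e1 in Acsm1-high nuclei is 48.4 CPM in the control and above 300 CPM in the other libraries, while Gsta3 lies between 554 and 688 CPM there.

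Counted over the members, scopolamine against control had 8 of 29 measured members past the fold on the higher side in acinar-like nuclei, where 20.9% of all measured genes were, and 4 on the lower side, where 5.3% were. Without the division by the class median this split was 5 higher and 6 lower. The members on the lower side were Cyp2a5, Cyp46a1, Cyp2b10 and Cyp2b19. On the higher side were Sult1e1, Sult1d1, Gstm1, Sult5a1, Ugt8a, Cyp4a12b and Cyp2s1. Their acinar-like level, like that of Cyp46a1, was not above the macrophage-like one beyond counting error in either library. These calls are therefore not read as changes in acinar expression. The acinar-like levels of Cyp2b10 and Cyp2b19 were not above the next class beyond counting error. Free RNA enters the counts of every class below as well, and its part in them was not tested. In Acsm1-high nuclei 8 of 29 were higher (15.2% of all genes) and 3 lower (11.9%), the 3 being Cyp2b19, Cyp46a1 and Cyp2b10. None of these 3 was above the macrophage-like level beyond counting error in either library. Their calls are therefore not read as changes in expression by Acsm1-high nuclei. The higher side held 2 sulfotransferases, Gstm1 and 5 P450 genes, and came to 3 members with at least 1000 UMIs and 500 genes per nucleus and to 2 in thinned nuclei. The median log2 relative ratio of the members was 0.18 in this class against 0.03 over all genes.

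Tamsulosin against scopolamine had 7 of 29 members higher in acinar-like nuclei (5.09% of all genes) and 2 lower (6.12%). The 7 became 2 with a pseudocount of 5 CPM and 11 with low-complexity clusters counted as acinar-like. In Acsm1-high nuclei 8 of 36 were higher (6.46%) and 5 lower (4.74%), with a member median of 0.24 against 0.01 over all genes. The higher ones were Cyp2a5, Cyp2j6, Cyp2f2, Cyp4b1, Cyp51, Gstm1, Cyp4v3 and Sult1d1, and the lower ones Sult5a1, Cyp4f15, Cyp46a1, Cyp27a1 and Cyp2b19. Cyp4f15 turned to the higher side (log2 1.02) in thinned nuclei, where 1 member was lower. Fibroblast-like nuclei had 10 of 20 higher (11.8%) and 1 lower (8.01%), or 7 and 2 without the division. Macrophage-like nuclei had 5 of 18 higher (6.58%) and none lower (4.44%), or 4 and 1 without it, and T or NK-like nuclei 2 of 5 higher (6.04%), Cyp2f2 and Cyp2a5, and none lower (3.49%).

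Tamsulosin against control had 11 members higher (19.9% of all genes) and 3 lower (7.71%) in acinar-like nuclei, or 9 and 9 without the division. In Acsm1-high nuclei 18 of 35 were higher (22.8%) and 4 lower (13.1%), or 11 and 6 without the division, and 8 in thinned nuclei. The member median there was 0.67 against 0.12 over all genes.

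In the other classes the shares of all genes past the fold are again given in brackets. Myoepithelial-like nuclei had 7 of 28 members higher (9.43%) and 4 lower (7.87%) for scopolamine against control, 2 of 28 higher (4.85%) and 3 lower (2.38%) for tamsulosin against scopolamine, and 5 of 25 higher (11.0%) and 5 lower (8.22%) for tamsulosin against control. Fibroblast-like nuclei had 3 of 20 higher (10.9%) and 4 lower (8.06%) with scopolamine, and 8 of 19 higher (19.2%) and 2 lower (15.2%) with tamsulosin, both against control, the latter being 6 and 3 without the division. Macrophage-like nuclei had 2 of 17 higher (11.5%) and 5 lower (9.94%) with scopolamine, and 6 of 17 higher (16.7%) and 2 lower (13.4%) with tamsulosin, the latter being 4 and 5 without it. In T or NK-like nuclei, where few genes were measured, Cyp2a5, Cyp2b10, Cyp2b19 and Gsta3 were the 4 of 6 lower with scopolamine (8.37%), with none higher (7.87%). With tamsulosin against control 1 of 7 was higher there (10.6%) and 4 lower (9.7%).

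**Figure D4:**
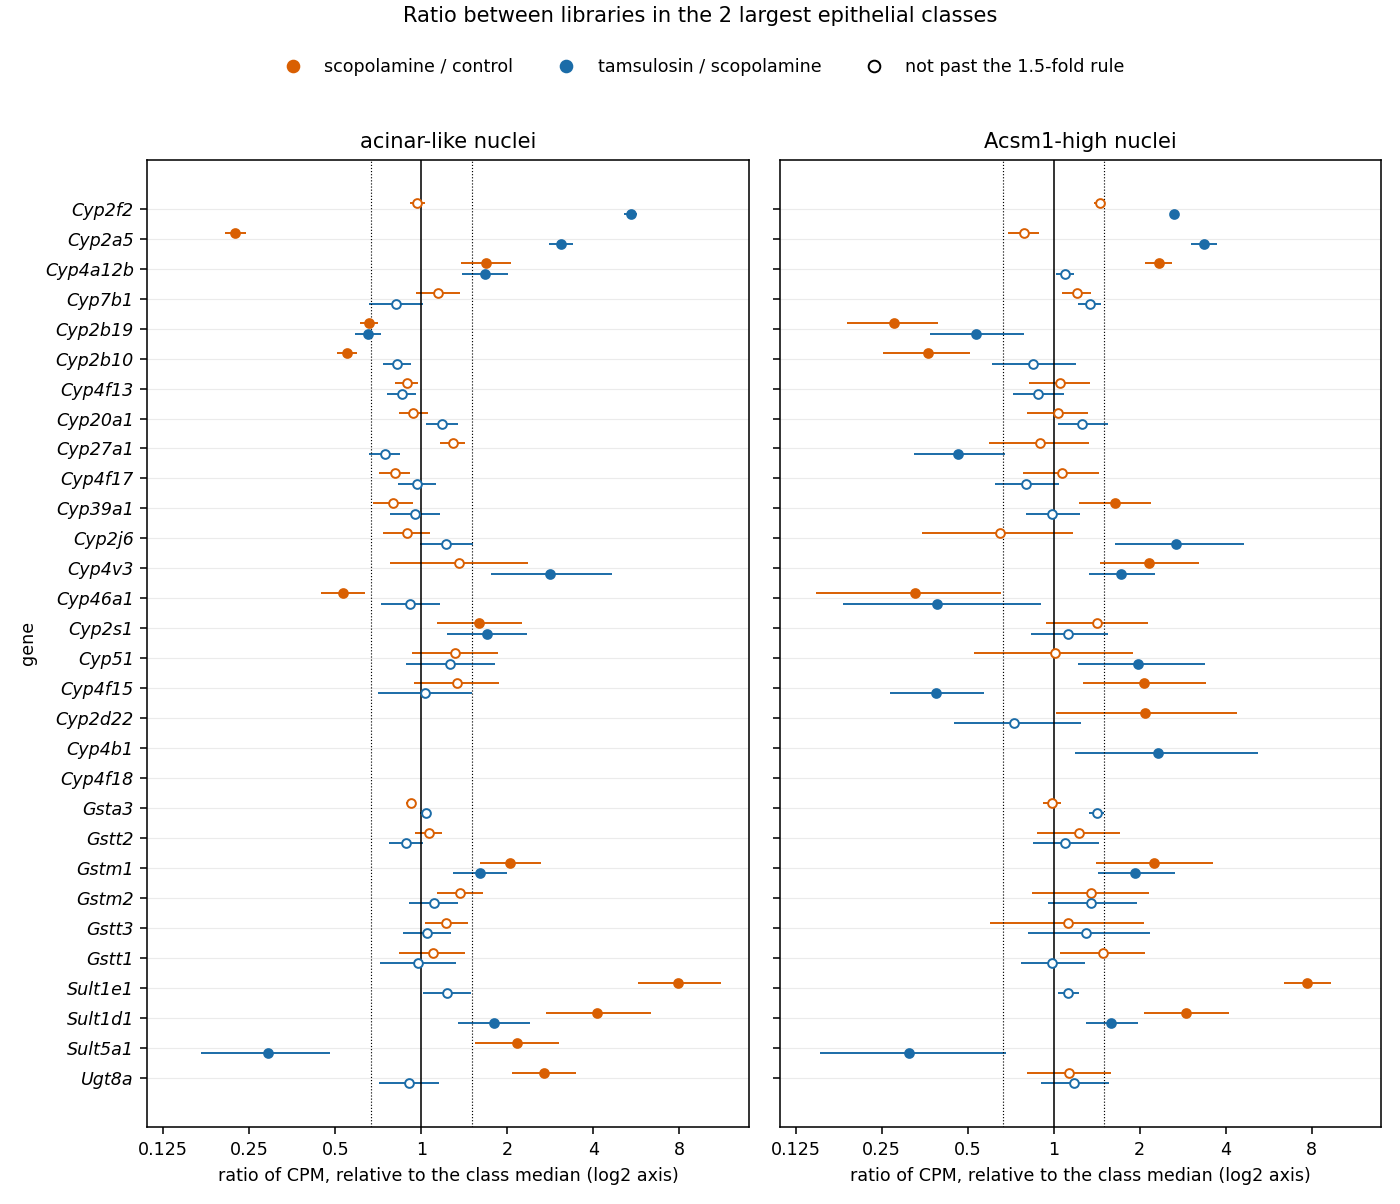
Relative ratio of each named member (log axis) in acinar-like and Acsm1-high nuclei, for scopolamine against control and tamsulosin against scopolamine, with 95% counting intervals, open points where the ratio is not past the fold, and lines at 1 and at 1.5-fold in either direction. Sult1e1 lies farthest to the right for scopolamine against control (7.92 and 7.69), and Cyp2a5 in acinar-like nuclei farthest to the left (0.224).

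Genes that serve these enzymes were taken from lists drawn up by function. Of 7 measured P450 redox partners in Acsm1-high nuclei, 2 were past the fold higher with scopolamine than in the control and none lower, where 15.2% and 11.9% of all measured genes were. Pgrmc1, a heme-binding partner of P450 enzymes, was one, at 21.2 CPM in the control, 38.8 CPM with scopolamine and 79.4 CPM with tamsulosin. In acinar-like nuclei 1 of 8 was higher and 2 were lower (20.9% and 5.3% of all genes), among them Fdx1, the ferredoxin of mitochondrial P450 enzymes, from 42.8 to 21.8 CPM. Of 7 xenobiotic and lipid receptors in Acsm1-high nuclei 2 were higher and 2 lower (15.2% and 11.9% of all genes). Ahr, the dioxin receptor, was higher (50.9 to 85.1 CPM), and Ppara, the fatty acid receptor that drives Cyp4a genes in liver, was lower (98.6 to 30.5 CPM, 2.82-fold). None of the 7 NRF2 regulators and targets measured was past the fold there.

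Among other oxidation enzymes in Acsm1-high nuclei, 3 of 15 were higher and 1 lower with scopolamine, against 15.2% and 11.9% of all genes, which holds for the next 2 lists as well. The lower one was Akr1c18, which inactivates progesterone (64.9 to 14.3 CPM). Of 6 other conjugation enzymes 3 were higher and 1 lower. Among the higher ones was the microsomal glutathione transferase Mgst1, at 7.17 CPM in the control, 20.7 CPM with scopolamine and 36.0 CPM with tamsulosin. Of 11 genes that supply the conjugating groups 2 were higher and 2 lower. Papss2, which makes the sulfate donor that sulfotransferases use, was 399 CPM in the control and 117 CPM with scopolamine (2.98-fold lower) and 69.8 CPM with tamsulosin, lower in both dry eye libraries, where Sult1e1 was higher. Cth, which makes cysteine for glutathione, was 17.9 and 3.93 CPM, while Mat2a, which makes the methyl donor, was 64.9 and 158 CPM.

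For steroid hormone genes in Acsm1-high nuclei, 1 of 6 was higher and 2 were lower with scopolamine (15.2% and 11.9% of all genes). Between scopolamine and tamsulosin, 3 of 14 sterol synthesis genes around Cyp51 were higher in Acsm1-high nuclei and none lower (6.46% and 4.74% of all genes), with a median log2 relative ratio of 0.36 against 0.01 over all genes. Among them were Msmo1, an enzyme of the pathway (10.8 to 16.0 CPM), and Insig1, which holds the pathway in check (16.7 to 28.4 CPM). In acinar-like nuclei 3 of 14 were also higher and none lower (5.09% and 6.12%). Scopolamine against control had none higher and 3 lower there (20.9% and 5.3%), among them the enzymes Lss and Fdft1. Of the efflux and uptake transporters in acinar-like nuclei, 7 of 12 were higher and 1 lower with scopolamine than in the control (20.9% and 5.3% of all genes), and none of 11 higher and 5 lower with tamsulosin than with scopolamine (5.09% and 6.12%). Abcg2, an efflux pump for drugs and urate, was 1.5, 2.72 and 0.313 CPM. It was among the top genes of the endothelial-like cluster, and the part of free RNA in these low acinar-like levels was not tested.

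DBP, TEF and HLF are the clock-driven factors known to control the daily rhythm of Cyp2a5 in liver. Dbp was 8.07, 0.905 and 1.19 CPM in acinar-like nuclei of the control, scopolamine and tamsulosin libraries and 6.93, 3.30 and 4.89 CPM in macrophage-like ones. The acinar-like control value lay within the macrophage-like counting interval (2.99 to 13.7), so Dbp is not read as acinar expression. Tef was 251, 88.1 and 72.0 CPM in acinar-like nuclei and 166, 52.1 and 39.2 CPM in macrophage-like nuclei, in the same order. Hlf stood at 4.06, 3.62 and 4.20 CPM in acinar-like nuclei, against 75.3, 106 and 101 CPM in Acsm1-high ones. Macrophage-like nuclei held 6.07, 7.25 and 5.51 CPM of Hlf, so its acinar-like level is not read as acinar expression. Nfil3, the repressor that binds the same sites, was 4.10, 9.45 and 11.0 CPM in acinar-like nuclei. These values lay within the counting intervals of Nfil3 in macrophage-like nuclei (3.47, 7.25 and 8.57 CPM) and are not read as acinar expression either. The hour at which each gland was taken is not in the labels, so time of day and treatment cannot be told apart.

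Likeness to other genes was measured as Pearson's r of log2(CPM + 5) over 21 points, each a class in a library, among 11716 genes. The points share libraries and free RNA, so r is a description only. Sult1e1 was most like Sult1d1 (0.96), Foxq1 (0.938) and Gm15883 (0.937). Cyp2a5 was most like Dmbt1 (0.805), A2ml1 (0.764) and Tcim (0.754), and Cyp2b19 like Rsrp1 (0.96), Golga4 (0.959) and Gal3st2b (0.955). For Cyp2f2, looked up after its levels were seen, the most like genes were Fcgbp (0.977), which codes for a mucus protein, Sftpd (0.948), a lectin of airway surfaces, and St6galnac1 (0.945).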

How the data were processed

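The values are raw UMI counts, as deposited, for each gene in each barcode. The submitters' processing notes name Cell Ranger 5.0.0 and the build mm10. The annotation release, the use of intronic reads and the strand setting are not given in the sources used here. Nuclei with at least 500 UMIs, 300 genes and at most 5% mitochondrial counts were kept. Doublets (414, 801 and 1156 nuclei) were removed as the highest simulated-doublet scores at 0.8% per 1000 barcodes, because Scrublet's own threshold marked 0, 0 and 1. Nuclei were clustered without the 162 genes that match the name patterns, with scanpy 1.11.5 (2000 variable genes, 30 components, 15 neighbours, Leiden resolution 1.0), and named from marker lists. Raw counts were then summed per class and library and scaled to counts per 1000000 (CPM). Ratios have exact conditional binomial intervals, levels exact Poisson intervals and shares exact Clopper-Pearson intervals, all at 95%. With 1 library per group there are no p-values. The totals were 33500727, 35237256 and 57969348 UMIs in the deposited control, scopolamine and tamsulosin matrices. The 6 classes with at least 100 nuclei in each library were compared. The ratio procedure was tested on simulated counts. Sharing of 31-base stretches and overlaps were read from GENCODE M21.

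Named genes are the 25 members with the most UMIs, Cyp2a5, Cyp2b19 and Sult1e1, up to 5 members per class, comparison and direction with the largest relative ratio and 50 UMIs, and up to 3 genes per pathway list and direction. Low members outside it (Cyp26b1, Cyp1b1, Cyp2r1, Gsta4 and Ugt1a6a), Dbp, Tef, Hlf and Nfil3, Gm15883 and Gm28836, and Cyp2f2 in the search for like genes, were chosen after their values were seen. The members and lists were chosen with earlier results of these data known. Some genes of the pathway lists are not reported here by name.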

Additional observations from a re-analysis of the deposited data

How the results depend on the processing

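No paired analysis was possible because each group is 1 library, and leaving out a replicate was not possible for the same reason. Of 158 ratios of named members past the fold, the number still past it in the same direction was 129 of the 144 with a value at Leiden resolution 2.0, 129 of 153 with doublets kept, 136 of 153 with at least 1000 UMIs and 500 genes per nucleus, 134 of 145 with the members among the variable genes, 141 of 146 with at least 1600 UMIs per nucleus, 66 of 96 with nuclei thinned to 1000 UMIs, 137 of 158 without the division by the class median, 140 of 158 with a pseudocount of 5 CPM, 157 of 158 without the 50 most abundant genes in the total, 108 of 108 with at least 100 UMIs per gene, and 158 of 158 both with 1 UMI and with low-complexity clusters counted as acinar-like. Leaving out the acinar-like clusters led by Kit and Car6, an alternative chosen after seeing the data, kept 156 of 158.

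The ratio that turned most often was Cyp2a5 for tamsulosin against control in myoepithelial-like nuclei (log2 -0.61), which was 0.54 with at least 1000 UMIs and 500 genes, 0.49 with doublets kept, 1.03 at resolution 2.0, 1.02 with the members among the variable genes and 0.84 when thinned. Cyp27a1 for scopolamine against control in the same class (0.70) was -0.48 at resolution 2.0 and -0.51 with the members among the variable genes. Cyp4a12b for tamsulosin against scopolamine was 0.28 in that class with doublets kept (-0.82 otherwise) and -0.062 in acinar-like nuclei with the members among the variable genes (0.74 otherwise). Cyp4f15 for tamsulosin against scopolamine in Acsm1-high nuclei (-1.37) was 1.02 when thinned.

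Among the counts, the 8 members higher with scopolamine than in the control in Acsm1-high nuclei became 3 with at least 1000 UMIs and 500 genes, 2 when thinned and 5 with at least 100 UMIs per gene. The 8 in acinar-like nuclei became 5 without the division. The 7 higher with tamsulosin than with scopolamine in acinar-like nuclei became 4 with doublets kept, 4 at resolution 2.0, 3 with the members among the variable genes, 2 with the pseudocount and 11 with low-complexity clusters included, and the 2 lower became 1 at 1600 UMIs and 0 with the pseudocount. In Acsm1-high nuclei the 5 lower became 1 when thinned, 3 with at least 100 UMIs per gene and 3 with the pseudocount. For tamsulosin against control, the 3 lower in acinar-like nuclei became 5 at resolution 2.0, 5 with the members among the variable genes and 9 without the division, and the 18 higher in Acsm1-high nuclei became 8 when thinned and 11 without the division. Thinning and the 100 UMI minimum leave fewer genes to measure; for the other changes the cause was not tested. At 1600 UMIs T or NK-like nuclei were too few to compare.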
